A study of Mus musculus with 12 samples.

Results

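Interferon response genes are the genes that cells switch on after an interferon binds its receptor, together with the factors that sense viral RNA and drive the response. They were taken here as every probe of the array whose gene name belongs to the Ifit, Ifi, Ifitm, Oas, Isg, Irf, Mx, Usp18, Gbp, Igtp, Iigp, Bst2, Rsad2 and Ddx58 families or to part of the Stat family. Within the Ifi family the rule takes names that end in a number, so Ifi202b is not a member. This rule found 86 of the 41174 probes, which stand for 55 of 27962 gene names. The names are those of the array's design, and 4 of them are old ones. The probes called Gbp1, Gbp4, Iigp2 and Ifi27 carry accessions that RefSeq now names Gbp2b, Gbp3, Irgm2 and Ifi27l2a, and the array's names are kept below.

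The study profiled the hypertrophic zone of the tibial growth plate, the layer in which cartilage cells enlarge before bone replaces them, in 4 groups of 3 mice aged 14 days. Schmid mice carry the Col10a1 p.Asn617Lys mutation, which makes collagen X misfold, and were homozygous, and Cog mice carry ColXTgcog, a transgene for a misfolding thyroglobulin expressed from the collagen X promoter. Each mutant had wildtype littermates of its own background, so the comparisons addressed how hypertrophic cartilage responds to a misfolded protein with and without a collagen X mutation. The study did not separate hemizygous from homozygous Cog mice, so the Cog arrays may mix transgene doses. The tissue came from 1 tibia of each mouse, was cut by hand from frozen sections, and gave RNA that was amplified in a pair of linear rounds before Cy3 labelling, so each array stands for a single animal.

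Type I and type II interferons act through JAK kinases that phosphorylate STAT factors. The phosphorylated factors, with an IRF protein for type I interferons, bind the interferon stimulated response element (ISRE) or the gamma activated sequence (GAS) near the start of their target genes. The induced proteins block viral entry, cut viral RNA, tag proteins with Isg15, or serve as GTPases against pathogens inside the cell. In bone and cartilage some of these genes have other uses, such as Ifitm5, which osteoblasts make during mineralization.

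Hypertrophic and cartilage markers were detected on every array. Well above background on all 12 arrays, a mark that the scanner software sets from the local background, were 5 of 5 hypertrophic markers (Col10a1, Ihh, Mmp13, Panx3 and Spp1) and 6 of 6 cartilage markers. So were 8 of 8 osteoblast markers, so detection alone does not set this tissue apart from bone. Arrays differed in sensitivity. Between 58.9 and 61.8% of spots were well above background on the Schmid arrays, 48.0 to 59.4% on those of their wildtype, 39.6 to 48.1% on the Cog arrays and 41.1 to 58.5% on those of the Cog wildtype. The 3 Schmid arrays filled slide 1 and the 3 arrays of the Cog wildtype filled slide 4, while slide 3 held the 3 Cog arrays and 1 array of the Schmid wildtype. Mutant arrays and the wildtype arrays of the same background never shared a slide, so the effects of slide and genotype cannot be told apart. The number of arrays, 3 in a group, limits the precision of each value.

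Many interferon response genes were dim in this tissue. Of the 86 probes, 17 (19.8%) were well above background on all 12 arrays, against 31.1% of all probes, and 23 (26.7%) on none, against 28.4%. The 17 probes belong to 16 genes, among them Bst2, Gbp5, Ifi205, Ifi30, Ifi47, Ifitm1, Ifitm2, Ifitm3, Ifitm5, Ifitm7, Irf1, Irf2, Irf3, Isg15 and Isg20. Another 8 genes (Ifit1, Mx2, Oas1b, Oas1d, Oas1g, Oas1h, Oas2 and Usp18) had no probe well above background on any array.

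The sequences upstream of the members that passed a test are shown because interferon acts on these genes through short elements near the start site. RefSeq windows on GRCm38.p6, from 250 bases before to 50 after a gene's start, existed for 43 of the 55 member genes, and the letters searched were GAAA, any 2 bases and GAAA for the ISRE and TTCNNNGAA for the GAS, on both strands. The ISRE letters were present in 23 of the 43 genes (53.5%), against 3.99% of 27025 genes with a window. The GAS letters were present in 13 (30.2%), against 9.55%. These families are defined by their induction, and a match of letters is a description, not a site of binding. Of the 11 members with both a call and a window, the following 5 hold an ISRE match. For Gbp1, Igtp, Oas3 and Rsad2 the 140 bases before the start are printed, and for Ifitm3 the run extends past the start because its matches lie there. All are written 5′ to 3′ along the gene, with the ISRE match in capitals.
Gbp1 (Gbp2b), chr3:142594707-142594846, plus strand: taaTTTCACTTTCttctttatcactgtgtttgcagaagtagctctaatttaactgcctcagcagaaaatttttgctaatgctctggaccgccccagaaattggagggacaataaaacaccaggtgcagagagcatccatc
Ifitm3, chr7:141010716-141010884, minus strand: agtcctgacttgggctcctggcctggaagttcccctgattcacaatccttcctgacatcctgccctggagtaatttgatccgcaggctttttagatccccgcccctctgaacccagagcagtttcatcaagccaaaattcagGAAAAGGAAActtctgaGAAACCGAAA
Igtp, chr11:58199416-58199555, plus strand: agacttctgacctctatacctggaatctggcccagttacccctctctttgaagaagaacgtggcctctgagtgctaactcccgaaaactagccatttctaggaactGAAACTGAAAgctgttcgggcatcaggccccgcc
Oas3, chr5:120777660-120777799, minus strand: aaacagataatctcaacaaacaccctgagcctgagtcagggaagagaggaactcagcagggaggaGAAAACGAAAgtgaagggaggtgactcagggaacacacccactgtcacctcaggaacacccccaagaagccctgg
Rsad2, chr12:26456453-26456592, minus strand: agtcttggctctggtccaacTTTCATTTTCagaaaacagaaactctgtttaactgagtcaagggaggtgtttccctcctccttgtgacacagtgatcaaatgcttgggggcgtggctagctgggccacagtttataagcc
The Ifitm3 run holds 2 matches and those of the other 4 genes 1 each. In Gbp1 and Rsad2 the match lies on the strand opposite to the gene. The GAS letters, not marked in the runs, occur in 3 of the 11 members, Ifitm3, Igtp and Irf8. In Ifitm3 they begin 13 bases after the start and overlap the second of its ISRE matches. In Igtp they begin 45 bases before the start, ahead of its ISRE match. Ifitm1, Ifitm5 and Ifitm7, which also passed a test, held neither element in their windows.

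A probe was called when its adjusted p was 0.05 or less (limma, Benjamini-Hochberg over all 41174 probes) and its fold change at least 2, and fold changes below wildtype carry a minus sign. In Schmid, 3 member probes were higher than wildtype (3.49%, against 5.78% of all probes) and 9 were lower (10.5%, against 4.69% of all probes). The higher probes included those of Rsad2 and Gbp1. The lower ones were those of Ifitm1, Ifitm3, Ifitm5, Ifitm7, Igtp, Irf8 and Oasl2, with 2 probes of Ifi27. The median log2 fold change of the members was -0.20 and that of all probes -0.06. Scaling moved this split. It was 2 higher and 15 lower with normexp values scaled to the 75th percentile, where 6.24% of all probes were higher and 8.39% lower and their median was -0.35. It was 2 and 13 with the scanner's processed signal scaled in the same way, against 7.24% and 9.79% of all probes (median -0.40). It was 4 and 11 with the processed signal after quantile normalization, against 7.01% and 9.68% of all probes. The share of all probes called lower thus rose under each of these scalings too.

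In Cog, limma called no member probe higher (0%, against 1.56% of all probes) and none lower (0%, against 0.748%), so that 2.31% of all probes were called in either direction. At an unadjusted p of 0.05 or less there were 18 (20.9%), against 21.3% of all probes. The median log2 fold change was -0.05, against -0.00 for all probes. The change in Schmid minus the change in Cog, tested as an interaction, passed the threshold for 7 member probes (8.14%, against 10.3% of all probes). It was lower for Ifitm1, Ifitm3, Ifitm7 and Oas3 (4.65%, against 5.88%) and higher for 3 (3.49%, against 4.38%), among them Gbp1 and Ifi44. Between the 2 wildtype groups limma called no member probe (0%, against 0.469% of all probes), where 11 (12.8%, against 14.1%) had an unadjusted p of 0.05 or less. Without replicate 3 of the Schmid wildtype 1 was called (Ifi205, log2 difference 1.42, adjusted p = 0.049).

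**Figure D1:**
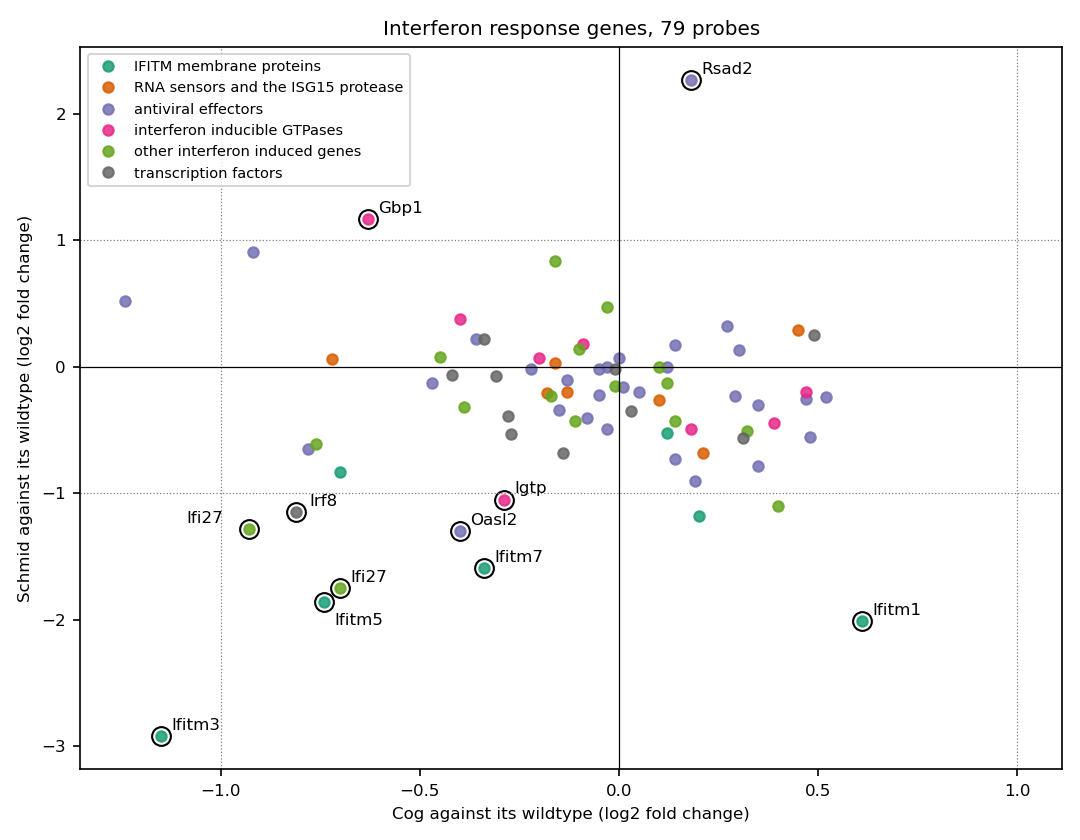
Log2 fold change of 79 of the 86 member probes in Cog (horizontal axis) and in Schmid (vertical axis), each against its own wildtype, with colours for the role groups, dotted lines at a 2-fold change and black rings with names on 11 probes called in Schmid. Ifitm3 lies lowest at -2.92 in Schmid and -1.15 in Cog, and Rsad2 highest in Schmid at 2.27.

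The IFITM proteins, small membrane proteins that hinder viruses from entering cells, formed the role group with the most calls. All 7 of their probes, from 6 genes, had negative log2 fold changes in Schmid, from -0.52 to -2.92 with a median of -1.59, and 4 were called lower. Removing trends over array rows and probe GC content left 6 of 7 negative, with 4 still called lower. In Cog 4 of 7 were negative, against 50.5% of all probes, with a median of -0.34 and none called. RefSeq places Ifitm5, Ifitm2, Ifitm1, Ifitm3 and Ifitm6 next to each other on chromosome 7, with no other protein coding gene between them, and Ifitm7 on chromosome 16.

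Ifitm3, the best known antiviral member, had normalized log2 signals of 11.29, 11.46 and 11.21 in Schmid and 13.78, 14.73 and 14.22 in its wildtype. Every Schmid array lay below every wildtype array. The fold change in Schmid was -7.57 (log2 -2.92 ± 0.29 SE, limma adjusted p = 0.00022). The Cog arrays held 12.62, 12.07 and 13.19 against 13.62, 13.76 and 13.95, which again did not overlap, with a fold change of -2.22 and an adjusted p that rounds to 0.050 and lay just past the threshold. Of the alternatives, 5 called it lower in Cog, among them array weights (log2 -1.36, adjusted p = 0.0045) and the fit without Cog replicate 3 (log2 -1.43, adjusted p = 0.026). The interaction of Ifitm3 was -1.77 ± 0.41 SE on the log2 scale (adjusted p = 0.016).

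Ifitm1 gave the most uniform Schmid arrays, with 10.41, 10.43 and 10.44 against 12.20, 12.68 and 12.43 in wildtype. Its fold change was -4.03 (log2 -2.01 ± 0.14 SE, adjusted p = 4.5e-05). In Cog it went the other way, with 12.37, 12.07 and 12.33 against 11.56, 11.61 and 11.78, all Cog arrays above all wildtype arrays. That change, 1.52-fold, had an adjusted p of 0.037 and stayed under the fold threshold. The interaction was -2.62 ± 0.20 SE (adjusted p = 0.00021). The wildtype groups themselves differed at this probe by 0.79 log2 units, higher in the Schmid background (adjusted p = 0.034).

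Ifitm5, the osteoblast member of the family, had 10.35, 10.23 and 10.40 in Schmid and 12.10, 12.39 and 12.09 in wildtype, with no overlap and a fold change of -3.64 (log2 -1.86 ± 0.35 SE, adjusted p = 0.0043). The Cog arrays (11.74, 10.63 and 10.88) overlapped their wildtype (12.56, 11.16 and 11.76), and the fold change of -1.67 had an adjusted p of 0.25. Ifitm7 had 11.10, 10.66 and 11.20 in Schmid and 12.41, 12.94 and 12.36 in wildtype, again apart, with a fold change of -3.0 (log2 -1.59 ± 0.23 SE, adjusted p = 0.0012). Its Cog arrays (11.70, 11.45 and 12.08) overlapped the Cog wildtype (11.85, 12.04 and 12.35). The interaction of Ifitm7 was -1.25 ± 0.32 SE (adjusted p = 0.026) and lost its call without replicate 2 of Schmid or of its wildtype, replicate 3 of Cog, or replicate 1 or 2 of the Cog wildtype, with the processed signal under either scaling, and after removal of the row trend alone or with the GC trend (log2 down to -0.86; adjusted p without 1 array between 0.053 and 0.061, and between 0.0068 and 0.15 over all settings but the test against a 2-fold change).

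Ifitm2 and Ifitm6 were not called. The brighter Ifitm2 probe read 11.24, 11.57 and 11.54 in Schmid and 11.96, 12.42 and 12.46 in wildtype, which did not overlap (fold change -1.78, adjusted p = 0.053), and the dimmer one changed -1.43-fold (adjusted p = 0.013). Ifitm6 ranged from 9.91 to 12.95 within its 3 wildtype arrays, and its fold change of -2.26 was not called (adjusted p = 0.18). Without wildtype replicate 3, which held the 9.91, it was called lower (log2 -1.92, adjusted p = 0.023). The calls of Ifitm1 and Ifitm3 in Schmid held under all 19 alternatives run, and those of Ifitm5 and Ifitm7 under 18, failing only a test against a 2-fold change.

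**Figure D2:**
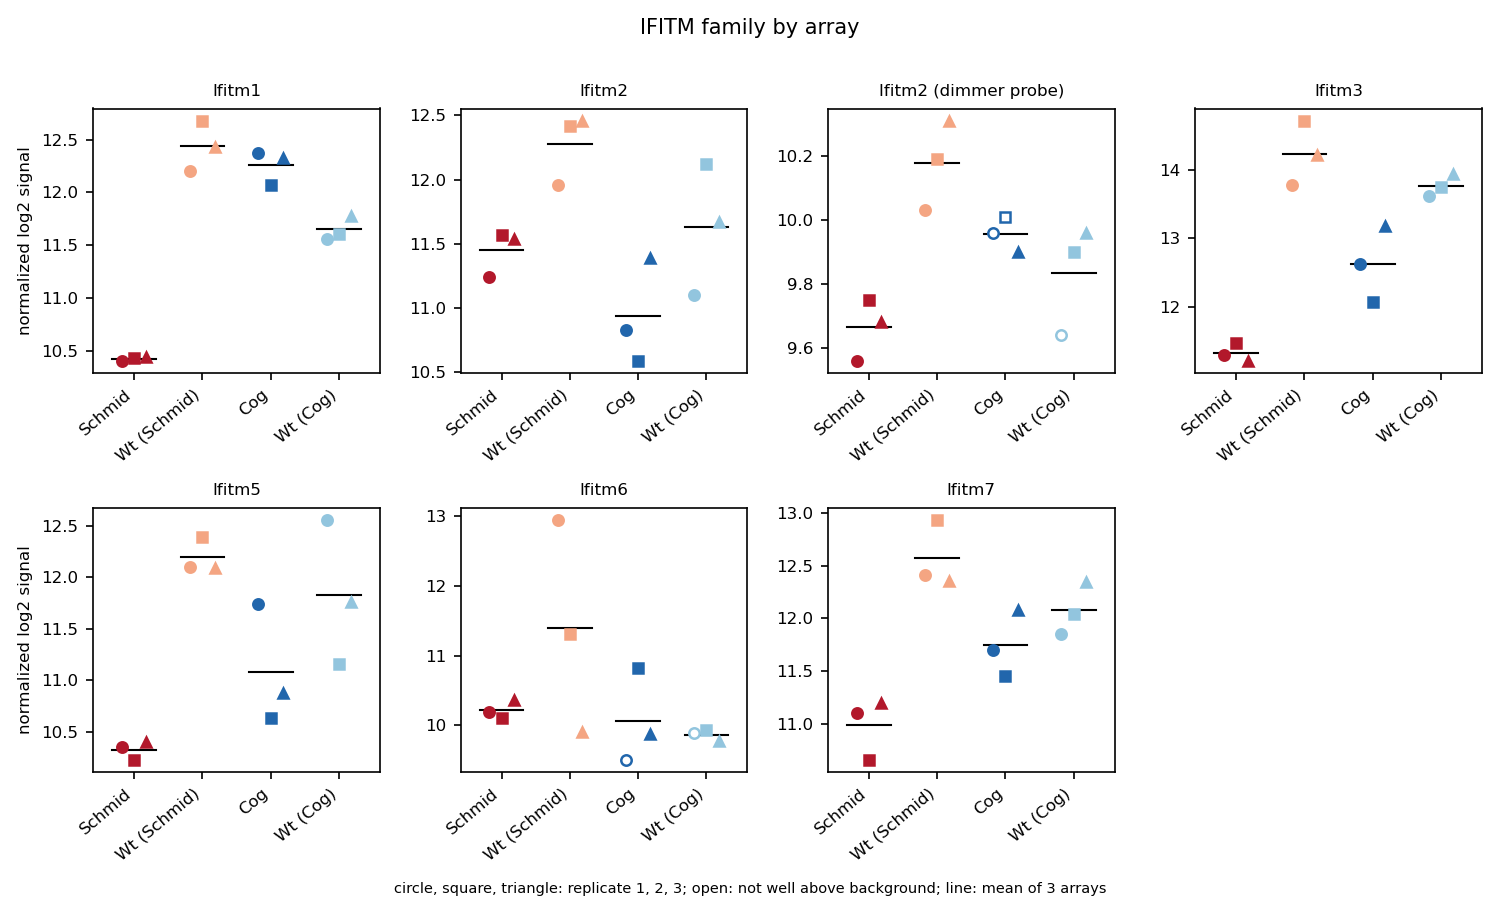
Normalized log2 signal of the 7 IFITM probes on the 12 arrays, with circles, squares and triangles for replicates 1, 2 and 3, open symbols where the probe was not well above background, and a line at the mean of 3 arrays; each panel has its own axis. The Schmid points lie below all points of their wildtype for Ifitm1, Ifitm2, Ifitm3, Ifitm5 and Ifitm7, and the Cog points lie above their wildtype for Ifitm1 and below it for Ifitm3.

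Marker lists of most cell types, the tissue's own among them, were lower in Schmid on average, like the IFITM genes. For 9 of 10 lists the mean signal of every Schmid array lay below that of every wildtype array, the neutrophil list being the exception. The hypertrophic list, with Ihh alone called lower (log2 -3.55), ran from 14.32 to 14.91 against 15.11 to 16.62. The cartilage list, with Matn1 alone called lower (log2 -2.61), ran from 16.28 to 16.73 against 16.83 to 17.62. Not every marker of these lists fell. Col10a1 and Spp1 changed by -0.02 and 0.36 log2 units and Sox9 by 0.46, none called, while the rest were negative. Of 7 endothelial markers 3 were called lower (Cdh5, Emcn and Kdr), and the mean signal of the list was 9.92 to 10.24 on the Schmid arrays and 11.02 to 11.44 on those of wildtype. No array had Pecam1 well above background. Of 8 osteoblast markers, all well above background on every array, 1 was called lower (Col1a1), with list means of 14.38 to 14.75 against 15.11 to 16.28. Of 6 erythroid markers 3 were lower (Hbb-b1, Hba-a1 and Alas2), with means of 10.97 to 11.80 against 12.87 to 14.33. Of 5 leukocyte markers 1 was lower (Cd52), with means of 9.76 to 10.03 against 10.29 to 11.45. In Cog the endothelial means were 10.69 to 10.89 against 11.24 to 11.46 and no endothelial marker was called. The osteoblast means in Cog were 15.00 to 15.39 against 15.54 to 16.25 and 1 marker, Dmp1, was called lower. Ihh of the hypertrophic list (log2 -1.37, adjusted p = 0.036) and Cd3e of the lymphocyte list (log2 -1.57, adjusted p = 0.00056) were also called lower in Cog. The osteoclast list (10.41 to 10.81 against 11.08 to 12.04 in Schmid) had 1 of 7 called lower, Mmp9, and the lymphocyte list ran from 9.76 to 9.92 against 10.05 to 10.79. The neutrophil list overlapped (9.97 to 11.90 against 9.62 to 13.83). Of its 8 markers 1, Lcn2, was called higher in Schmid at 17.9-fold (adjusted p = 0.0036). The other neutrophil markers all went the other way in Schmid, from log2 -0.38 to -2.90, with none called. The median of that list was log2 -1.54. Fewer cells of a type and less RNA per cell cannot be told apart in these samples, and the part of other cells in the IFITM values was not tested.

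**Figure D3:**
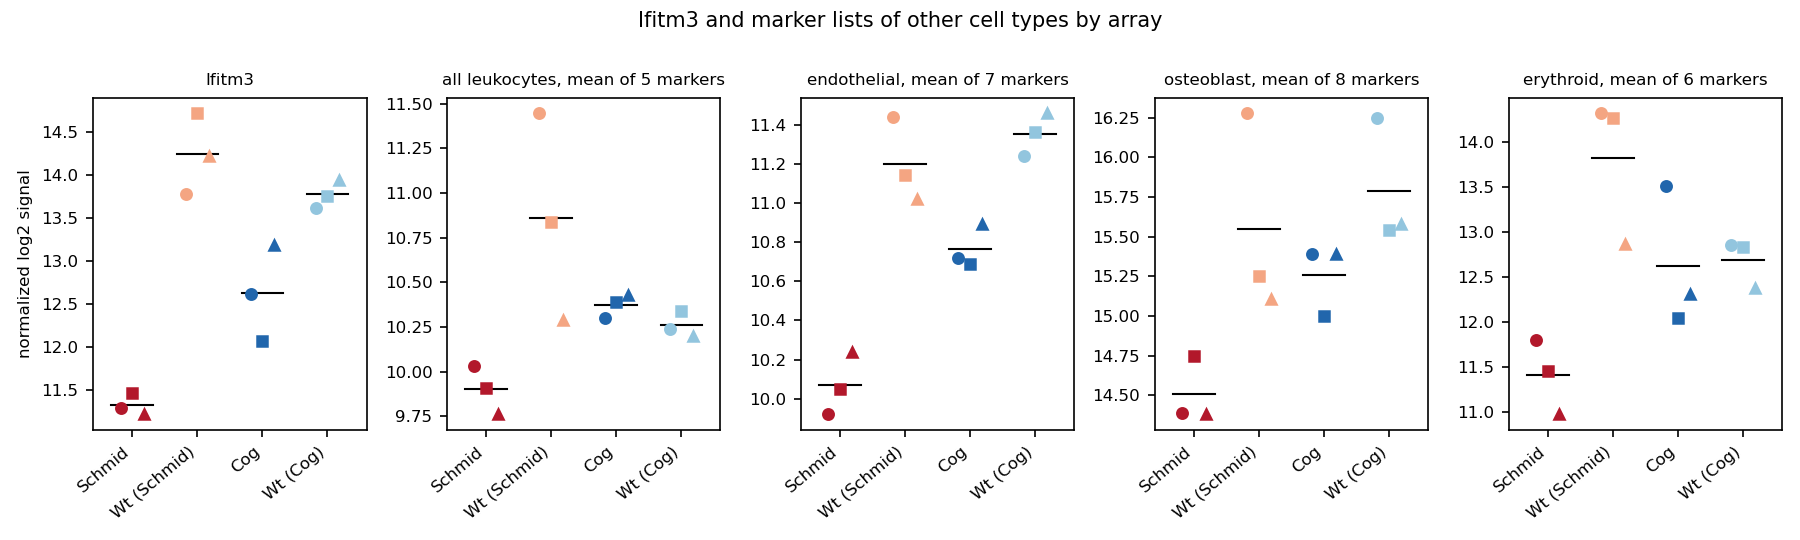
Normalized log2 signal of Ifitm3 and the mean signal of the leukocyte, endothelial, osteoblast and erythroid marker lists on each of the 12 arrays, with circles, squares and triangles for replicates 1, 2 and 3 and a line at the mean; each panel has its own axis. In all 5 panels the Schmid arrays lie below those of their wildtype, and Cog lies below its wildtype for Ifitm3 and the endothelial and osteoblast lists.

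The antiviral effectors, 30 probes of 21 genes, held 4 probes that were well above background on all arrays and 13 that were so on none. The median of their log2 fold changes was -0.18 in Schmid and 0.01 in Cog, with 1 probe called higher and 1 lower in Schmid.

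Rsad2, or viperin, an enzyme that makes a nucleotide which stops viral RNA synthesis, had the largest rise among the members in Schmid. Its brightest probe read 13.51, 13.37 and 13.15 in Schmid and 12.45, 9.75 and 11.04 in wildtype, so the Schmid arrays lay above all wildtype arrays although the latter were far apart. The fold change was 4.81 (log2 2.27 ± 0.67 SE, adjusted p = 0.034). In Cog the values were 10.21, 10.19 and 10.40 against 11.33, 10.06 and 8.86 in wildtype, which overlapped (adjusted p = 0.91). The call was lost with the processed signal under either scaling, in a fit of these 6 arrays alone, and without any 1 of the Schmid arrays or wildtype replicate 2 or 3 (adjusted p between 0.070 and 0.12, and between 0.0060 and 0.15 over all settings but the test against a 2-fold change). The 2 other Rsad2 probes changed by -0.34 and 0.07 on the log2 scale in Schmid (adjusted p = 0.16 and 0.72), so the 3 probes of this gene disagreed.

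The Oas genes encode synthetases that answer double-stranded RNA with a messenger molecule for RNase L. They are a family of near copies, and a probe may take signal from a relative. Oasl2 was called lower in Schmid, with 7.59, 7.83 and 8.0 against 9.23, 9.04 and 9.07 in wildtype (adjusted p = 0.045), but no array of either group had it well above background, so no fold change is given. Its call was lost with the processed signal under either scaling and without any 1 of these 6 arrays (adjusted p between 0.080 and 0.13, and between 0.0055 and 0.66 over all settings but the test against a 2-fold change). Oas3 differed between the mutants by -1.13 ± 0.21 SE log2 units (adjusted p = 0.0061), with 9.14, 9.28 and 9.34 in Schmid against 9.70, 10.19 and 10.20 in wildtype. The Cog values ran the other way, 9.95, 10.13 and 10.10 against 9.65, 9.86 and 9.63. Oas3 was not well above background on any Schmid array and its fall there was at least 1.72-fold (adjusted p = 0.0046), under the threshold. Its second probe, not above background on any array, changed by -0.02. Removing a trend over the rows of the array brought the Oas3 difference to -0.75, and removing row and GC trends to -0.71, both under 2-fold. Oas1e behaved likewise at log2 -0.73 in Schmid (adjusted p = 0.0068) and 0.14 in Cog, and was called lower in Schmid when values were scaled to the 75th percentile (log2 -1.14, adjusted p = 0.0060). Of the remaining Oas probes, 1 had an adjusted p of 0.05 or less in Schmid, the brighter one of Oas2, with a log2 change of -0.49 (adjusted p = 0.0063) and no array well above background.

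Isg15, a ubiquitin-like protein that interferon induces and enzymes join to other proteins, was measured well above background on all arrays and was not called. It read 9.60, 10.30 and 10.67 in Schmid and 11.28, 11.43 and 10.57 in wildtype (log2 -0.90 ± 0.57 SE, adjusted p = 0.26). The Cog arrays spread from 10.81 to 12.48 and their wildtype from 10.78 to 12.81 (adjusted p = 0.88). Ifit3, which binds foreign RNA, read 9.75, 9.72 and 9.99 in Schmid, 11.12, 9.78 and 10.52 in its wildtype, 10.21, 10.58 and 13.11 in Cog and 12.12, 12.20 and 11.94 in the Cog wildtype, with no call. Replicates 1 and 2 of Cog thus lay below, and replicate 3 above, every array of the Cog wildtype. Isg20, an exonuclease that degrades RNA, read 16.33, 15.53 and 15.35 in Schmid against 14.92, 14.94 and 14.61 in wildtype, all above (1.88-fold, adjusted p = 0.14). In Cog it read 13.69, 13.98 and 15.47 against 15.65, 15.17 and 15.07 (-1.89-fold or log2 -0.92 ± 0.42 SE, adjusted p = 0.25). Bst2, or tetherin, which holds budding viruses on the cell, changed -1.32-fold in Schmid (adjusted p = 0.44). Ifit1, Ifit2, Mx1 and Mx2, which mark an interferon response in most tissues, were well above background on at most 2 arrays and their brightest probes changed by -0.24 to 0.32 log2 units in Schmid, with adjusted p of 0.19 or more.

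The interferon inducible GTPases, 8 probes of 8 genes, split both ways. Gbp1 read 9.95, 9.42 and 9.22 in Schmid and 8.31, 8.17 and 8.59 in wildtype, without overlap (log2 1.17 ± 0.23 SE, adjusted p = 0.0054). It was well above background only on Schmid replicate 1, and the rise was at least 1.02-fold. Without that array the log2 change was 0.96, under 2-fold (adjusted p = 0.020, and between 0.0018 and 0.12 over all settings but the test against a 2-fold change). Cog read 7.81, 7.70 and 8.10 against 8.77, 8.63 and 8.12, none well above background, and the interaction was 1.81 ± 0.32 SE (adjusted p = 0.0053). The interaction was no longer called with 75th percentile scaling of the processed signal (0.76, adjusted p = 0.54) or its quantile normalization (1.34, adjusted p = 0.20) and with normexp values scaled to the 75th percentile (1.40, adjusted p = 0.059). Both 75th percentile scalings, array weights and removal of row and GC trends also ended the Schmid call. Igtp, an immunity related GTPase, read 9.86, 9.45 and 9.62 in Schmid and 10.50, 11.01 and 10.56 in wildtype, apart from each other, with a fold change of -2.07 (log2 -1.05 ± 0.30 SE, adjusted p = 0.029). Cog read 9.63, 9.58 and 10.79 against 10.30, 10.09 and 10.47 (adjusted p = 0.62). The Schmid call was lost with the series matrix values, and without any 1 of the Schmid arrays or wildtype replicate 2 or 3 (adjusted p between 0.052 and 0.11, and between 0.0056 and 0.11 over all settings but the test against a 2-fold change). Gbp5 and Ifi47, well above background on all arrays, changed by 0.07 and -0.44 log2 units in Schmid (adjusted p = 0.78 and 0.27). Gbp2, Gbp4, Iigp1 and Iigp2 changed by 0.38, 0.18, -0.20 and -0.49, with adjusted p of 0.26 or more.

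Among the transcription factors, 18 probes of 10 genes, no probe was called in Cog. Stat2, which carries the type I interferon signal, changed by 0.25 in Schmid and 0.49 in Cog (adjusted p = 0.40 and 0.21). Irf7, the factor that amplifies type I interferon, read 9.59, 9.28 and 9.55 in Schmid against 9.80, 10.13 and 10.17 in wildtype (log2 -0.56 ± 0.13 SE, adjusted p = 0.014, under 2-fold). Its interaction of -0.87 also passed on p alone (adjusted p = 0.012). Irf1, Irf2 and Irf3, well above background on all arrays at their brightest probes, changed by -0.06, -0.53 and -0.68 in Schmid (adjusted p = 0.94, 0.16 and 0.11). Irf4 and Irf5 changed by -0.35 and -0.39 (adjusted p = 0.10 and 0.44).

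Irf8, a factor of the myeloid lineage, was called lower in Schmid. It read 9.18, 9.69 and 9.27 in Schmid and 11.36, 10.63 and 9.60 in wildtype, and the arrays overlapped. Its fold change was -2.22 (log2 -1.15 ± 0.36 SE, adjusted p = 0.045), and the call was lost with the processed signal quantile normalized, in a fit of these 6 arrays alone, with array weights, after removal of row and GC trends, and without any 1 of the Schmid arrays or wildtype replicate 1 or 2 (adjusted p between 0.062 and 0.13, and between 0.0048 and 0.13 over all settings but the test against a 2-fold change). The second Irf8 probe changed by 0.22 (adjusted p = 0.21). Cd52 was highest on the same wildtype array as Irf8, replicate 1, at 13.95, as were 35.4% of all probes well above background on every array. Laptm5, also of the leukocyte list, changed by 0.34 log2 units in Schmid. Of 9 macrophage markers Csf1r and Lyzs were called lower in Schmid, with list means of 10.54 to 10.70 against 10.90 to 11.61. Mrc1, Cd68 and Cd14 of that list changed by 0.22, 0.02 and 0.02, and the rest were negative without a call. The part of these cells in the Irf8 value was not tested.

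The other interferon induced genes, 16 probes of 7 genes, include Ifi27, which has 3 probes here. One of them read 8.19, 8.69 and 8.54 in Schmid and 10.26, 9.60 and 9.40 in wildtype, lower at least 1.84-fold (log2 -1.28 ± 0.24 SE, adjusted p = 0.0045). Another read 7.80, 8.29 and 7.42 against 10.19, 9.30 and 9.28, lower at least 1.80-fold (log2 -1.75 ± 0.33 SE, adjusted p = 0.0046), a call lost with 75th percentile scaling of the processed signal (adjusted p = 0.12) or its quantile normalization (adjusted p = 0.26). Both were well above background on 1 array, wildtype replicate 1. The brightest of the 3 read 9.67, 9.69 and 9.63 against 9.92, 9.76 and 10.26, lower without overlap but not called (log2 -0.32, adjusted p = 0.14). All 3 were negative in Cog too, at -0.93, -0.70 and -0.39, with adjusted p of 0.056, 0.26 and 0.17.

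Ifi44 was higher in Schmid on all 3 arrays, 10.12, 9.92 and 9.87 against 9.12, 9.18 and 9.08. It was well above background on the Schmid arrays alone, and rose at least 1.38-fold (log2 0.84 ± 0.12 SE, adjusted p = 0.0010), under the threshold. Its interaction was 1.0 ± 0.17 SE (adjusted p = 0.0037), at the edge of 2-fold, and fell to between 0.90 and 0.99 without replicate 1 of Schmid, replicate 3 of its wildtype, replicate 1 or 3 of Cog or replicate 1 of the Cog wildtype. It also lost its call under both 75th percentile scalings (2.47 and 0.57, adjusted p = 0.068 and 0.30), with the series matrix values (0.98), with array weights (0.84) and after removal of the row trend alone (0.83) or with the GC trend (0.82). A second Ifi44 probe, not above background on any array, changed by -0.15. Ifi205 of the HIN-200 family, whose members bind DNA, read 9.82, 10.03 and 9.92 in Schmid against 11.62, 11.52 and 9.95 in wildtype (fold change -2.15, adjusted p = 0.066), and was called without wildtype replicate 3 (log2 -1.65, adjusted p = 0.0031). Ifi204 changed by -0.61 (adjusted p = 0.16), Ifi203 by 0.14 and Ifi35 by 0.00. Ifi30, a thiol reductase of lysosomes that was well above background everywhere, changed by 0.08 in Schmid and -0.45 in Cog (adjusted p = 0.83 and 0.30).

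**Figure D4:**
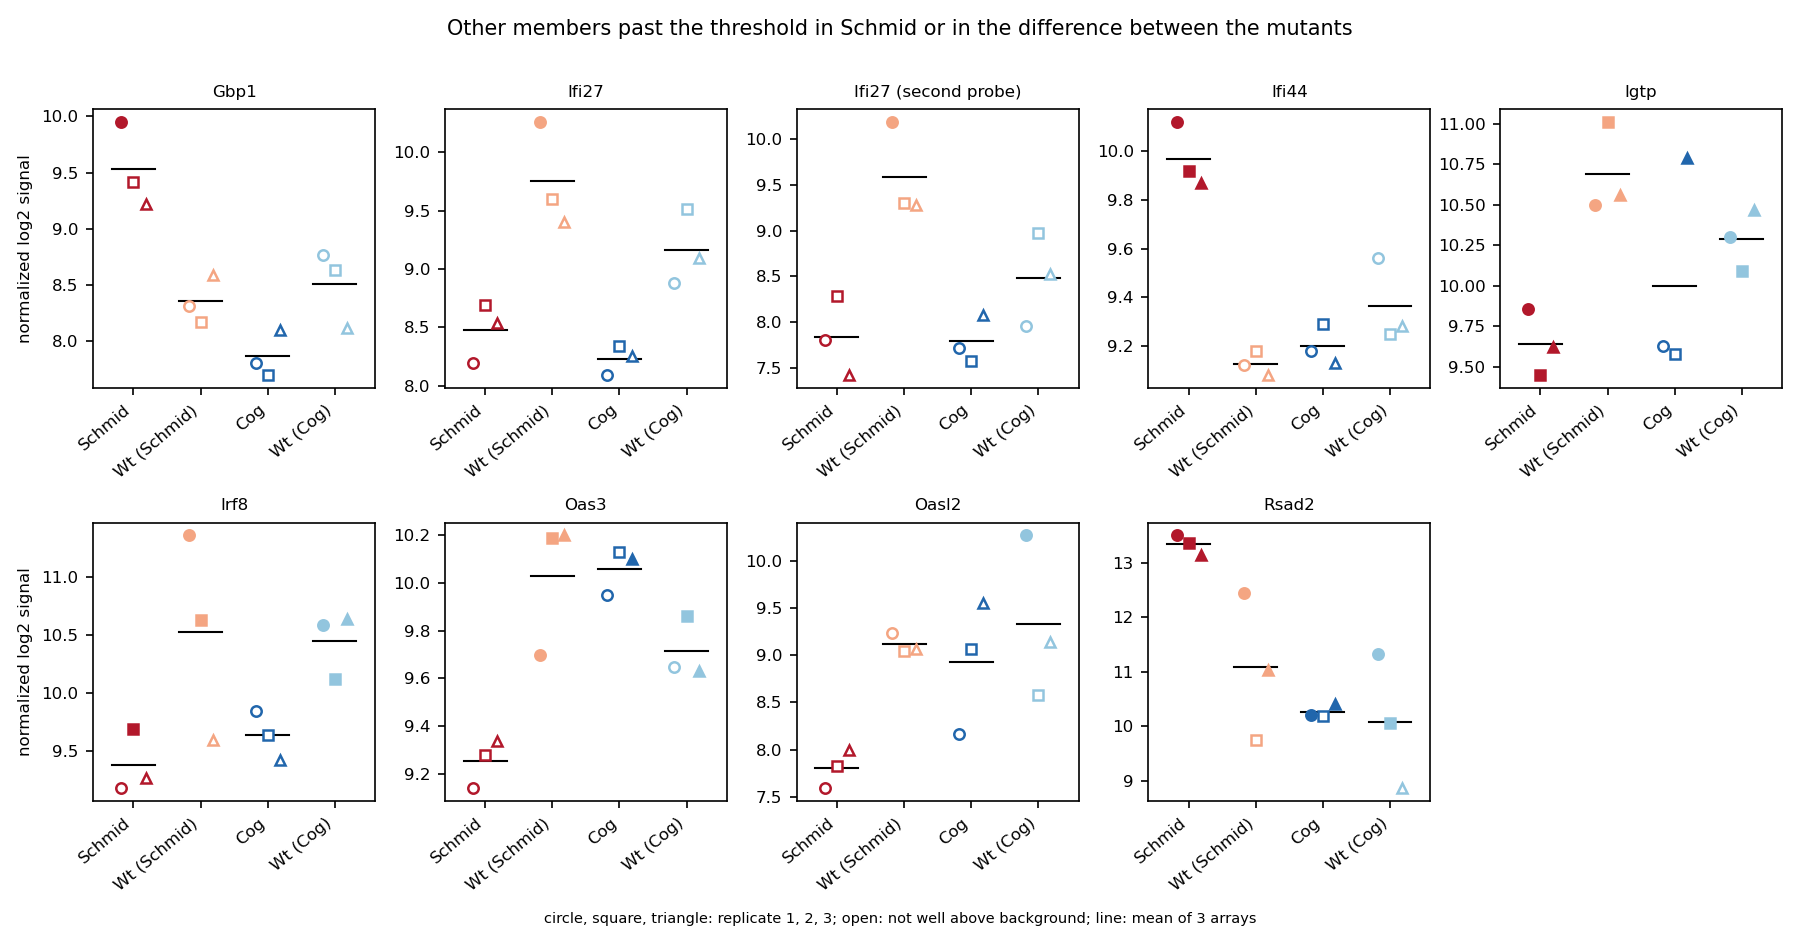
Normalized log2 signal on the 12 arrays of 9 member probes outside the IFITM family that passed the threshold in Schmid or in the difference between the mutants, with symbols and lines as in the plot of the IFITM family; each panel has its own axis. Open symbols show that Oasl2, Gbp1 and both Ifi27 probes were rarely well above background, and Ifi44 is filled on the 3 Schmid arrays alone.

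The RNA sensors Ddx58 (RIG-I) and Ifih1 (MDA5) and the Isg15 protease Usp18 gave 7 probes, none of them called in any comparison. They were well above background on at most 4 arrays, and their log2 changes lay between -0.68 and 0.29 in Schmid and between -0.72 and 0.45 in Cog.

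Replicate 3 of Cog stood apart in this gene set. Of the 17 member probes well above background on all arrays, it held the highest of the 3 Cog values at 13 (76.5%), against 37.4% of 12817 such probes over the whole array. Irf1, for example, read 11.39, 11.75 and 13.59 in Cog and Ifi47 10.06, 10.38 and 11.24. Isg20, and Ifit3 from outside these 17 probes, were likewise highest on that array. The other 4 of the 17, those of Ifitm1, Ifitm5, Irf2 and Irf3, were highest on Cog replicate 1. The median within-group SD of these 17 probes was 0.50 in Cog, against 0.31 for all such probes, and 0.17, 0.33 and 0.29 in Schmid, its wildtype and the Cog wildtype, against 0.19, 0.39 and 0.30. Without Cog replicate 3, 4 member probes were called lower in Cog (0.639% of all probes in that fit), those of Ifitm3, Ifit3 (log2 -1.69, adjusted p = 0.028) and Isg20 (-1.46 and -1.78, adjusted p = 0.033 and 0.014). The osteoclast list was also highest on that array, at 11.79 against 10.51 and 11.01, as was the macrophage list, at 11.29 against 11.02 and 10.76, and the leukocyte list was 10.30, 10.39 and 10.43 on the 3 arrays. Their part in these values was not tested.

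**Figure D5:**
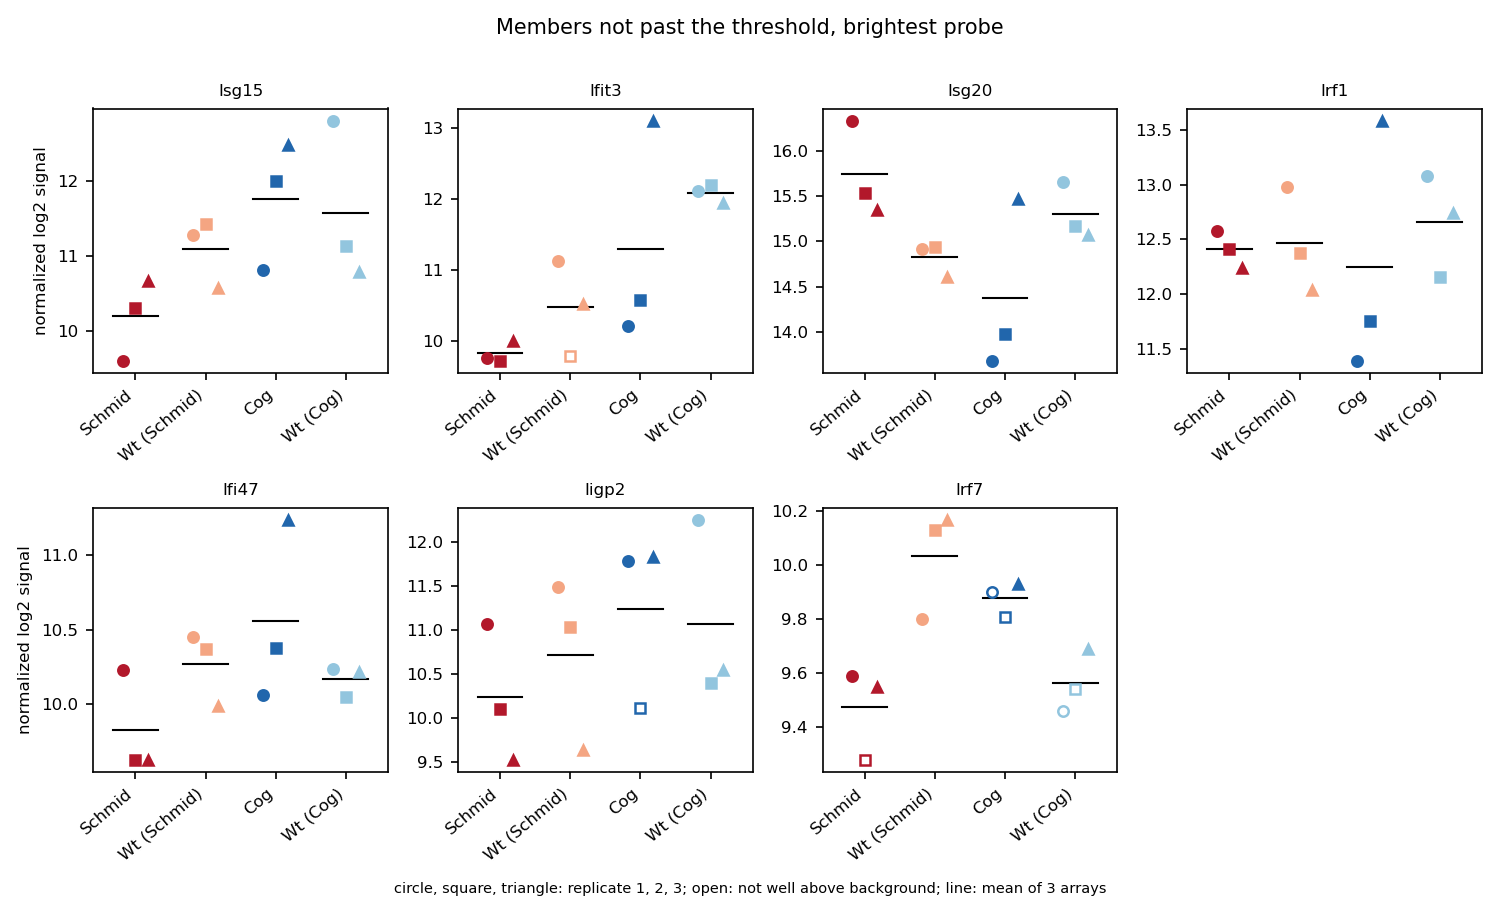
Normalized log2 signal on the 12 arrays of 7 members that were not called, at their brightest probe, with symbols and lines as in the plot of the IFITM family; each panel has its own axis. The triangle of Cog replicate 3 is the highest Cog point for Isg15, Ifit3, Isg20, Irf1, Ifi47, Iigp2 and Irf7. Replicates 1 and 3 were nearly level for Iigp2 (11.78 and 11.83) and Irf7 (9.90 and 9.93). Irf2 and Irf3, also not called but not shown, were highest on Cog replicate 1.

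Of 15 interferon genes on the array 1 was called in Schmid, where 4.69% of all probes were lower, and 6 were lower in the Schmid change minus the Cog change, against 5.88% of all probes. The gene called in Schmid was Ifnab, an interferon alpha, which read 10.71, 10.09 and 11.02 against 11.07, 11.80 and 11.97 (fold change -2.01, adjusted p = 0.047). Its Cog arrays, 11.51, 11.36 and 11.67, lay above their wildtype, 9.83, 10.57 and 10.88 (adjusted p = 0.089). The 6 that differed between the mutants were Ifnab (log2 -2.09, adjusted p = 0.013), Ifna12 (-1.33, adjusted p = 0.014), Ifna13 (-1.28, adjusted p = 0.046), Ifna9 (-1.09, adjusted p = 0.0016), Ifna2 (-1.11, adjusted p = 0.0053) and Ifnk (-1.18, adjusted p = 0.0044), and no array had Ifna2 or Ifnk well above background. Of these 6 probes, those of Ifna2, Ifnk, Ifna9, Ifnab and Ifna12 lie on array rows 16, 29, 45, 121 and 155. That of Ifna13 lies on row 217, of 532 rows. The alternatives were compared at member probes only, so the part of a trend over array rows in these differences was not tested. Ifnb1 and Ifng were not well above background on any array, and the interferon alpha genes are near copies whose probes may share signal. Of 9 receptor and kinase genes, from Ifnar1 to Tyk2, and of 15 genes that relay sensing to interferon transcription, none was called in either mutant. Of 7 feedback inhibitors Ptpn2, a phosphatase that acts on JAK and STAT proteins, was higher in Schmid, 15.38, 15.17 and 15.55 against 14.61, 13.52 and 13.31 (2.93-fold, adjusted p = 0.0057).

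Of 49 further interferon stimulated genes outside the name rule, 2 were higher and 3 lower in Schmid, against 5.78% and 4.69% of all probes. In Cog 1 was higher, against 1.56% of all probes. In the difference between the mutants 1 was higher and 5 were lower, against 4.38% and 5.88% of all probes. Higher was Ifi202b, and lower were Slfn5, Apobec3, Ms4a4b, Pml and Ly6e. The probes of these lower genes lie on array rows 22, 29, 72, 136 and 179, and Slfn5 was well above background on 1 array. The part of a trend over array rows in these differences was not tested. Wars, the tryptophanyl-tRNA synthetase, was higher in both mutants, in Schmid by 2.59-fold (adjusted p = 0.0036) and in Cog by 3.05-fold (adjusted p = 0.0085), with every mutant array above every wildtype array. Ifi202b, of the HIN-200 family, rose 3.20-fold in Schmid (adjusted p = 0.015), while its fold change in Cog was -2.41 and not called (adjusted p = 0.10). Lower in Schmid were Lgals3bp, a secreted glycoprotein (-2.37-fold, adjusted p = 0.0058), Pml, the scaffold of nuclear bodies (-2.19-fold, adjusted p = 0.0017), and Ms4a4b, a membrane protein of T cells (at least 2.42-fold, adjusted p = 0.00050). The median log2 fold change of the 49 was -0.17 in Schmid and -0.07 in Cog.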

How the data were processed

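For the 12 mice the authors deposited scanner output that holds the intensity of every spot (Agilent Feature Extraction 9.5.3, per the labels), and a series matrix of log2 values. Per the methods and a comparison of its values, the deposited log2 matrix holds these arrays after normexp and quantile normalization (correlation with the values made here between 0.99987 and 0.99996). It served as an alternative.

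From the intensity values, spots flagged as non-uniform or outlying were left out (99.8% were kept), background was corrected with normexp (offset 50), control spots were removed, values were quantile normalized over 12 arrays, and spots of a probe were averaged. Of the 86 member probes 1 has more than 1 spot. A model of the 4 group means was fitted in limma (8 residual degrees of freedom), and p-values were adjusted over 41174 probes. The fit was tested on simulated data. The methods give normexp with this offset, quantile normalization and limma. Quantile normalization gives every array the same distribution, so values are relative to the array as a whole. Where no array of a group had a probe well above background, the probe has only a bound there. The bound is the mean of the brighter group over all its arrays, against the higher, on each array of the dim group, of the dimmest well measured probe's signal and the probe's own signal.

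Gene names come from the array's annotation, and 70 member probes of 50 genes matched RefSeq by accession. Named are all members with a call, at the brightest such probe, members well above background on all arrays, and others by role. Of the member genes, 2 are counted but not reported here. The members and gene lists were chosen with earlier results of these data known. Every array is 1 mouse. Alternatives covered background correction, scaling, deposited values, array weights, dim probes, slide, replicate number, trends over array rows and probe GC content, a test against a 2-fold change, and each array left out. A fit with the replicate number as a block on Schmid and its wildtype alone was chosen after seeing the data. The software was R (4.3.3) with limma (3.58.1) and data.table (1.17.8).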

Additional observations from a re-analysis of the deposited data

Results flagged for a closer look

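For 6 named member probes the change in Schmid differed from the change in Cog by the interaction test across all probes. On the log2 scale the Schmid change minus the Cog change was -2.62 for Ifitm1 (adjusted p = 0.00021, limma), -1.77 for Ifitm3 (adjusted p = 0.016), -1.25 for Ifitm7 (adjusted p = 0.026) and -1.13 for Oas3 (adjusted p = 0.0061). It was 1.81 for Gbp1 (adjusted p = 0.0053) and 1.0 for Ifi44 (adjusted p = 0.0037). The changes themselves were -2.01 in Schmid and 0.61 in Cog for Ifitm1, -2.92 and -1.15 for Ifitm3, -1.59 and -0.34 for Ifitm7, -0.78 and 0.35 for Oas3, 1.17 and -0.63 for Gbp1, and 0.84 and -0.16 for Ifi44. The call was lost under alternative scalings for Gbp1, Ifi44 and Ifitm7 and after removal of a trend over array rows for Oas3, Ifi44 and Ifitm7. Of these 6 probes, those of Ifitm1, Ifitm3 and Ifitm7 were well above background on all 12 arrays.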

How the results depend on the processing

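The number of member probes called higher in Schmid (3) became 0 in a test against a 2-fold change (0.347% of all probes). It was 1 to 3 over the fits without 1 array, with 1 left without Schmid replicate 1 (3.66% of all probes). The number called lower in Schmid (9) became 15 with normexp values scaled to the 75th percentile (8.39% of all probes). It became 2 in the test against a 2-fold change (0.262%). The number called lower in Cog (0) became 1 with normexp values scaled to the 75th percentile (0.588% of all probes) and 4 with array weights (2.34%). It became 1 with dim probes filtered out (1.43% of the probes kept). With slide as a random block (correlation -0.12) it became 3 (1.59% of all probes). Over the fits without 1 array it was 0 to 4, with 4 without Cog replicate 3 (0.639%). The number that differed between the mutants (7) became 12 with normexp values scaled to the 75th percentile, where 3.4% of all probes were higher and 7.52% lower. It became 11 with slide as a random block (7.19% and 7.21%) and 4 after removal of a trend over array rows (3.41% and 4.21%). The test against a 2-fold change left 1 (0.124% and 0.391%). Between the wildtype groups 0 became 1 without replicate 3 of the Schmid wildtype (0.112% of all probes higher and 0.199% lower), for a range of 0 to 1. The test against a 2-fold change is stricter by construction. The cause of the other shifts was not tested.

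The groups share replicate numbers, but same-numbered deviations correlated at 0.193, 0.171 and 0.0660 between Schmid and its wildtype and at -0.116, 0.0716 and -0.106 between Cog and its wildtype over all probes. Over probes well above background on all arrays they were 0.307, 0.283 and 0.117, and -0.208, 0.151 and -0.200. Not every pair passed 0.1, and the pairing of Schmid with its wildtype depends on the probes used, so the numbers were taken as names only. With the replicate number as a block, 3 member probes were higher and 8 lower in Schmid, against 5.84% and 4.8% of all probes. Oasl2 (log2 -1.30, adjusted p = 0.067) was lost. In that fit 0 and 0 were called in Cog, against 1.42% and 0.731% of all probes. Between the mutants 7 differed, where 4.32% of all probes were higher and 5.77% lower. The block on Schmid and its wildtype alone lost the Irf8 call (adjusted p = 0.097).

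For the named probes, 662 of 768 values under an alternative kept direction and side of the threshold, 79 lost the call, 15 gained it and 12 changed sign, all of them Cog changes or differences that were not called. With 75th percentile scaling of the processed signal the Cog values became 0.21 and 0.81 (Ifi27), 0.60 (Oasl2), 1.01 (Gbp1) and 0.55 (Ifi44), and with that signal quantile normalized 0.23 (Gbp1) and 0.01 (Ifi44). Oasl2 in Cog became 0.01 with array weights and 0.07 without Cog wildtype replicate 1 (range -0.77 to 0.07), and Rsad2 -0.43 without Cog wildtype replicate 3 (range -0.43 to 0.81). The difference between the mutants became 0.03 for Ifi27 with array weights and 0.08 for Irf8 without replicate 1 of the Schmid wildtype (range -0.80 to 0.08). Signal over background limits most of these probes, and 23 of 86 were well above background on no array.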
